A study of Mus musculus with 54 samples.

Results

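Bone morphogenetic protein (BMP) response genes were followed across the developing mouse small intestine. The 7 genes are Id1, Id2, Id3, Smad6, Smad7, Smad9 and Atoh8, chosen by name as genes that BMP signalling induces, out of 17393 genes listed in at least 1 of the 4 deposited tables. All 7 were listed in the E16.5 sort table and all 7 passed its filter on low values, which asked for 1 RPKM or more in 3 or more libraries. Smad9 and Atoh8 fell below that filter in the inhibitor table, Atoh8 in the E13.5 table, and Smad9 was not listed in the E13.5 table.

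BMP ligands bind paired type I and type II serine/threonine kinase receptors, which phosphorylate the receptor-activated SMADs of the BMP branch. These enter the nucleus with the common partner SMAD and switch on a small set of direct targets, among them the Id genes. In the embryonic intestine, BMP ligands come mainly from the mesenchyme beneath the emerging villi, and the pathway is known for restraining epithelial proliferation. Id1, Id2 and Id3 encode helix-loop-helix proteins that lack a DNA-binding region and hold E proteins away from DNA, Smad6 and Smad7 encode inhibitory SMADs that limit the pathway, Smad9 encodes one of the receptor-activated SMADs, and Atoh8 encodes a basic helix-loop-helix transcription factor.

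The series holds 54 libraries of total RNA from sorted cells of mouse embryos. Untreated C57Bl/6J embryos at E16.5 gave 4 sorts, each in 3 libraries from the proximal, mid and distal small intestine (the first, middle and last of 5 sections): EpCAM (epithelium), PDGFRA-HIGH (PDGFRa high, CD29 intermediate), CD29-HIGH (PDGFRa intermediate, CD29 high) and PDGFRA-MED (intermediate for both), all live cells negative for CD31 and CD45. Untreated C57Bl/6J embryos at E13.5 gave EpCAM libraries from the distal and the proximal of 3 regions (3 each). Embryos labelled Top.CFP, a TCF/LEF reporter line, gave E16.5 EpCAM libraries after their dams had received LGK974 or vehicle between E12.5 and E16.5 (3 LGK974 libraries and 1 vehicle library per region). LGK974 inhibits PORCN, which attaches the lipid without which Wnt proteins are not secreted. The study pooled the vehicle library with the 3 untreated libraries of a region as control, and this was followed. In 3 of 4 control libraries strain, dosing and experiment therefore cannot be told apart from the inhibitor. Replicate numbers stand for mothers in the study's model. Nothing stated whether embryos were pooled.

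Library totals ranged from 15072991 to 26658039 reads over the genes listed. The sorts carried the RNA of the gate markers EpCAM and PDGFRa, with 1 exception. RNA of CD29 itself is not given here. Epcam reached 477 to 575 RPKM in EpCAM libraries and at most 8.85 RPKM in the E16.5 mesenchymal ones, Pdgfra reached 587 to 1187 RPKM in PDGFRA-HIGH and 65.3 to 107 RPKM in PDGFRA-MED libraries, and Myh11, a smooth muscle myosin, reached 2945 to 5504 RPKM in CD29-HIGH libraries. The exception was Pdgfra in CD29-HIGH libraries, gated as PDGFRa intermediate, at 0.682 to 8.98 RPKM, against 62.9 to 103 RPKM in PDGFRA-MED libraries of the same table. All levels are RPKM, reads per kilobase of gene scaled to library size. The 4 tables were normalised separately, and differences were tested only within a table.

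The promoters of 3 of the genes are shown because their windows held a match to a SMAD-binding motif. The RefSeq promoter table (GRCm38.p6) held 5 of the 7 genes, and all 5 windows of 250 bases before the start were searched on both strands for GGCGCC, a palindromic GC-rich element known to bind BMP SMADs, and for CAGAC, which holds the core letters of the SMAD-binding element. Read from the other strand this element is GTCTG. Matches are printed in capitals, 5′ to 3′ on the strand of the gene.
Id2, chr12:25096093-25096342, minus strand: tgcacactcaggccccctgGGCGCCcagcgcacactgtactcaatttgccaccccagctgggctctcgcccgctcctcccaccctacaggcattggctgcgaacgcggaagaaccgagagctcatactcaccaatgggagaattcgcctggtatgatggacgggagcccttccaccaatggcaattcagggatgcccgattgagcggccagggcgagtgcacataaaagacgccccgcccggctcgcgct
Id3, chr4:136143572-136143821, plus strand: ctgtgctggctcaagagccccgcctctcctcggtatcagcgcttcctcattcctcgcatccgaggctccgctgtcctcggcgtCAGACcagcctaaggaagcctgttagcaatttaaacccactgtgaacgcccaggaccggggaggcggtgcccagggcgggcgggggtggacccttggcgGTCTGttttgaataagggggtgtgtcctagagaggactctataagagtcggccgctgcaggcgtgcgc
Smad9, chr3:54755332-54755581, plus strand: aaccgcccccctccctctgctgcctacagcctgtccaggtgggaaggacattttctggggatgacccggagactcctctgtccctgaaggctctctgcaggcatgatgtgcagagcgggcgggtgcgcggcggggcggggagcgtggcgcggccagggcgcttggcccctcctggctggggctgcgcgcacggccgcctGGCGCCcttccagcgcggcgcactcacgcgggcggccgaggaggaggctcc
GGCGCC was found once in the Id2 window, 231 bases before the start, and once in the Smad9 window, 51 bases before it. It was present in 9.59% of 32851 promoter windows of that length. CAGAC was found 2 times in the Id3 window, 167 and 68 bases before the start, and was present in 42.2% of windows. The windows of Smad6 and Atoh8 held neither. The Id2 gene spans chr12:25093799-25096092, Id3 chr4:136143822-136145392 and Smad9 chr3:54755455-54801662, so the Smad9 window runs into the annotated gene. Its GGCGCC match, though before the start used for the window, lies within that annotated gene. A match of letters is a description and shows no bound site.

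The first question was whether mesenchymal cells with high PDGFRa, which lie next to the epithelium, differ in BMP response genes from the bulk of the mesenchyme. All 7 genes were higher in PDGFRA-HIGH than in PDGFRA-MED cells in each of the 3 regions, by 1.49 to 3.45 on the log2 scale averaged over regions. Id1, Id2 and Id3 were furthest apart together with Smad9, and Atoh8 differed least. A gene was called when limma's treat test put its log2 difference of RPKM + 0.5 beyond 0.5 in either direction, at a Benjamini-Hochberg adjusted p under 0.05 over all genes tested, and, for sorts, in all 3 regions. By that rule 7 of 7 members were higher, where 7.79% of all 14732 genes tested were. The members were chosen with earlier results of these data known, so the count set against that share is a description and not independent evidence. In bulk libraries like these, fewer responding cells and less RNA per cell cannot be told apart.

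Id1 read 109 to 158 RPKM in the 3 proximal, 138, 170.0 and 94.4 RPKM in mid and 152, 189 and 126 RPKM in distal PDGFRA-HIGH libraries. In PDGFRA-MED libraries Id1 read 10.2, 6.37 and 9.56 RPKM proximally, 14.0, 13.0 and 10.4 RPKM in mid and 26.0, 17.1 and 11.6 RPKM distally. The lowest PDGFRA-HIGH library stood above the highest PDGFRA-MED library in every region, and the mean difference was 3.45 ± 0.12 (log2, SE, limma, adjusted p = 2.19e-14).

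Id2 read 213, 195 and 231 RPKM in proximal, 146, 196 and 148 RPKM in mid and 141, 147 and 147 RPKM in distal PDGFRA-HIGH libraries. The PDGFRA-MED libraries held 16.3, 10.3 and 16.1 RPKM proximally, 18.5, 14.3 and 22.6 RPKM in mid and 27.2, 20.7 and 19.1 RPKM distally. The sorts were thus far apart everywhere, but the levels ran downwards along the intestine in PDGFRA-HIGH cells and upwards in PDGFRA-MED cells. The mean difference of Id2 was 3.23 ± 0.10 (limma, adjusted p = 7.63e-16). Id3 read 184, 181 and 138 RPKM in proximal, 177, 199 and 126 RPKM in mid and 178, 199 and 158 RPKM in distal PDGFRA-HIGH libraries. The matching PDGFRA-MED libraries held 20.2, 19.3 and 18.8 RPKM, then 27.1, 29.5 and 24.7 RPKM, then 45.8, 35.9 and 27.7 RPKM. Id3 was level along PDGFRA-HIGH cells and highest distally in PDGFRA-MED cells, with a mean difference of 2.65 ± 0.09 (limma, adjusted p = 4.36e-15).

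Both inhibitory SMADs followed the same direction at lower levels. Smad6 ranged from 21.3 to 34.3 RPKM (median 29.3, n = 9) in PDGFRA-HIGH and from 4.61 to 7.61 RPKM (median 6.03, n = 9) in PDGFRA-MED libraries, a difference of 2.11 ± 0.05 (limma, adjusted p = 2.98e-17). Smad7, which restrains both BMP and TGF-beta receptors, ranged from 32.4 to 45.3 RPKM (median 34.6) in PDGFRA-HIGH and from 7.38 to 9.86 RPKM (median 9.65) in PDGFRA-MED libraries, a difference of 1.92 ± 0.06 (limma, adjusted p = 2.61e-15). The spread within a sort was narrow for both, and in neither did the sorts overlap. Atoh8 ranged from 13.0 to 16.7 RPKM (median 14.6) in PDGFRA-HIGH and from 3.55 to 5.73 RPKM (median 5.33) in PDGFRA-MED libraries, a difference of 1.49 ± 0.08 (limma, adjusted p = 4.78e-10).

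Smad9, the receptor-activated SMAD of the set, was the member that varied most along the PDGFRA-HIGH cells. It read 28.0, 33.3 and 40.7 RPKM in proximal, 20.1, 21.8 and 25.0 RPKM in mid and 13.2, 14.1 and 20.3 RPKM in distal PDGFRA-HIGH libraries. In PDGFRA-MED libraries it read 4.34, 4.44 and 3.45 RPKM proximally, 3.30, 3.31 and 3.282 RPKM in mid and 2.48, 2.71 and 2.81 RPKM distally. Levels were lower distally in both sorts, and the sorts did not overlap in any region. The mean difference was 2.61 ± 0.07 (limma, adjusted p = 1.55e-16).

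**Figure D1:**
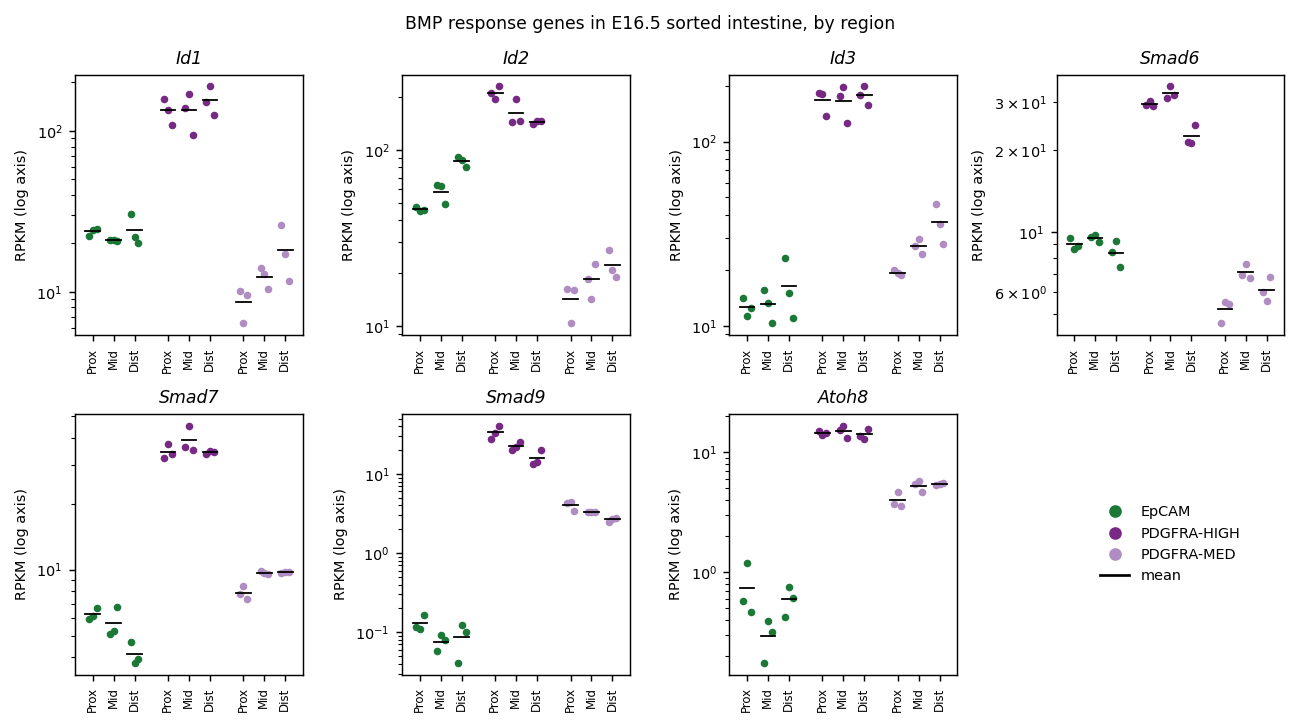
RPKM (log axis) of each of the 7 genes in every E16.5 EpCAM, PDGFRA-HIGH and PDGFRA-MED library, by region, 3 libraries per sort and region, with lines at the means. Every PDGFRA-HIGH library lies above every PDGFRA-MED library for all 7 genes, and Smad9 is at 0.0412 to 0.167 RPKM in EpCAM libraries.

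The difference between these mesenchymal sorts was itself larger at the proximal end for 4 of the 7 genes. The contrast of PDGFRA-HIGH over PDGFRA-MED, distal minus proximal, was -1.19 ± 0.24 for Id2 (adjusted p = 0.0023), -0.76 ± 0.21 for Id3 (adjusted p = 0.0239), -0.61 ± 0.12 for Smad6 (adjusted p = 0.00198) and -0.56 ± 0.17 for Smad9 (adjusted p = 0.0464), by limma's moderated test of the interaction. The same contrast was lower in 4.06% of all genes, and 9.6% differed between any pair of regions. The values for Id1, -0.77 ± 0.29 (adjusted p = 0.113), for Smad7, -0.30 ± 0.14 (adjusted p = 0.194), and for Atoh8, -0.45 ± 0.20 (adjusted p = 0.168), did not pass, and no member passed for mid minus proximal or distal minus mid. The log2 difference of Id2 between the sorts was 3.88 proximally, 3.12 in mid and 2.69 distally. The call of Smad9 was lost under 13 of 19 alternatives, 8 of them among the 12 that left out a library (PDGFRA-MED proximal replicate 3, any PDGFRA-MED distal replicate, PDGFRA-HIGH proximal replicate 2 or 3, or PDGFRA-HIGH distal replicate 1 or 2), with adjusted p up to 0.157. That of Id3 was lost under 5 of 19, without the replicate block and without PDGFRA-MED proximal 1, PDGFRA-MED distal 1, PDGFRA-HIGH proximal 2 or PDGFRA-HIGH distal 1. Id1 passed in 2 cases, without PDGFRA-MED proximal replicate 3 or distal replicate 3 (lowest adjusted p = 0.0424). Id2 and Smad6 passed under all 19, and without the block they were the 2 members that did.

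**Figure D2:**
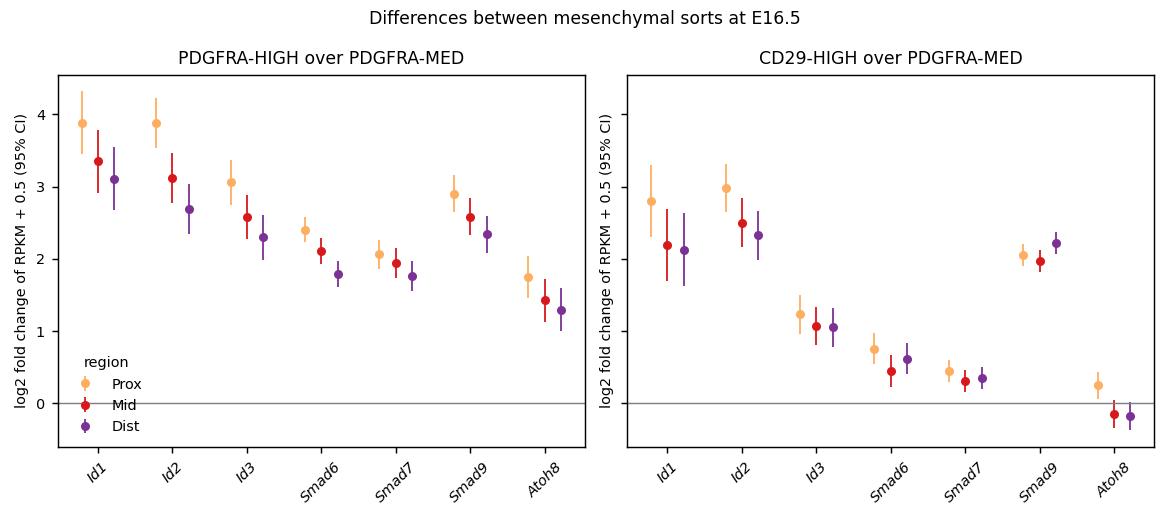
Log2 fold change of RPKM + 0.5, with 95% confidence intervals, of PDGFRA-HIGH over PDGFRA-MED (left) and CD29-HIGH over PDGFRA-MED (right) for each gene in the proximal, mid and distal region. In the left panel every value lies above 0 and the proximal one is the highest for each gene, whereas in the right panel Smad6, Smad7 and Atoh8 lie between -0.18 and 0.76.

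The rest of the pathway was counted in the same comparison. Of 7 BMP ligand genes tested, 6 were higher and 1 was lower in PDGFRA-HIGH cells, with Bmp2 at 4.51 ± 0.09, Bmp5 at 4.13 ± 0.07 and Bmp3 at 3.40 ± 0.11 above PDGFRA-MED and Gdf6, a growth differentiation factor of the BMP family, at -3.44 ± 0.10. Of 13 antagonists, 5 were higher and 1 was lower, with Fst, which binds activins and some BMPs, at 3.80 ± 0.11, the BMP trap Nog at 2.45 ± 0.08, Nbl1 at 2.23 ± 0.10 and the follistatin-like Fstl3 at -1.30 ± 0.09. Of 10 receptors and co-receptors, 5 were higher and 2 lower, among them the type I receptors Acvrl1 at 1.48 and Bmpr1b at 1.28, the co-receptor Eng at 1.36, and the co-receptors Rgma at -1.68 and Rgmb at -1.50. The median difference was 3.05 for the ligands, 0.14 for the antagonists and 0.81 for the receptors, against -0.02 for all genes tested.

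Among 12 SMAD transducers and regulators 3 were higher and none lower in PDGFRA-HIGH cells. These were Skil, a SMAD co-repressor, at 2.28, and the antiproliferative genes Tob1 at 1.74 and Tob2 at 1.32. Of 3 E protein genes, whose products the ID proteins bind, Tcf4 alone was higher, at 2.49. Other genes that respond to BMP were also counted, and of 5 tested none was higher and both Heyl, a Notch and BMP target, at -3.00, and Zfp423, which encodes a SMAD partner, at -0.86 were lower. Of 6 Hedgehog target genes 4 were higher, led by Hhip at 2.75, Foxl1 at 2.27 and Foxf1 at 2.07, whereas none of 6 Wnt target genes passed. Of 6 TGF-beta target genes 2 were higher and 2 lower.

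Other gene groups moved with the same sort. The summed RPKM of 11 immediate early genes, which dissociation of tissue can induce, was 3776 to 5948 in PDGFRA-HIGH and 1034 to 1779 in PDGFRA-MED libraries, and 10 of them were higher. The summed RPKM of 12 cell cycle genes was 128 to 296 in PDGFRA-HIGH and 631 to 843 in PDGFRA-MED libraries, and 11 were lower (8.04% of all genes were). The summed level of 11 listed endothelial markers was 31.0 to 58.9 RPKM against 5.89 to 12.1 RPKM, of which Erg made up 21.8 to 39.8 RPKM in PDGFRA-HIGH libraries. Plvap read 1.71 to 17.6 RPKM in PDGFRA-HIGH and 0.118 to 1.61 RPKM in PDGFRA-MED libraries, and Tie1 0.232 to 1.02 and 0.0404 to 0.261 RPKM. Kdr ran the other way, at 0.0641 to 0.614 and 0.576 to 2.99 RPKM. Pecam1 and Cdh5 stayed below 1 RPKM in all E16.5 sorts. Blood markers summed to 56.8 to 397 RPKM in PDGFRA-HIGH and 125 to 5625 RPKM in PDGFRA-MED libraries. The part of these gene groups in the member differences was not tested. All 7 calls held when any single library was left out. That does not address these groups, since the immediate early and cell cycle sums did not overlap between the sorts.

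Epithelium was compared with both mesenchymal sorts at E16.5. Against PDGFRA-HIGH cells, 6 of 7 genes were lower in EpCAM cells in all 3 regions, where 23.6% of all genes were. Smad9 was nearly absent from epithelium, at 0.0412 to 0.167 RPKM in EpCAM and 13.2 to 40.7 RPKM in PDGFRA-HIGH libraries, and Atoh8 stood at 0.176 to 1.19 RPKM against 13.0 to 16.7 RPKM. The mean differences were -5.28 ± 0.07 for Smad9, -3.89 ± 0.08 for Atoh8, -3.58 ± 0.09 for Id3, -2.65 ± 0.06 for Smad7, -2.58 ± 0.12 for Id1 and -1.59 ± 0.05 for Smad6 (limma, largest adjusted p = 1.23e-12). Id2 was the exception, with 91.3, 88.3 and 80.5 RPKM in distal EpCAM and 141, 147 and 147 RPKM in distal PDGFRA-HIGH libraries. Its distal difference of -0.74 ± 0.17 did not pass (limma, adjusted p = 0.136), whereas its proximal and mid differences passed. The distal groups did not overlap, but how many of all genes were separated in this way was not counted. In the same comparison 11 of 11 immediate early genes were lower, with a median of -2.68 beside -2.65 for the members, and summed to 610.2 to 1232 RPKM in EpCAM and 3776 to 5948 RPKM in PDGFRA-HIGH libraries. Of 12 cell cycle genes 8 were higher (25.5% of all genes were). Their part in the member differences was not tested.

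Against PDGFRA-MED cells the members did not move as a set, with 1 gene higher in EpCAM cells in all 3 regions (21.4% of all genes were) and 2 lower (21.3%). Id2 was the higher one, at 45.2 to 91.3 RPKM in EpCAM and 10.3 to 27.2 RPKM in PDGFRA-MED libraries (1.76 ± 0.10, limma, adjusted p = 7.14e-11). Smad9, at -2.67 ± 0.07, and Atoh8, at -2.40 ± 0.08, were the lower ones. With EpCAM levels this low, the sizes again depended on the processing. They ran from -5.05 to -1.97 for Smad9 and from -3.27 to -1.94 for Atoh8 over alternatives. Id1 was higher in EpCAM cells proximally alone, with 22.2, 24.4 and 24.7 RPKM against 10.2, 6.37 and 9.56 RPKM (1.42 ± 0.21, limma, adjusted p = 0.000367). Smad6 also passed proximally alone, at 0.74 ± 0.08, where 25.5% of genes were higher. Id3 and Smad7 were lower in mid (25.7% of genes) and distal (25%) EpCAM cells and did not pass proximally. The order of the sorts for Id1, Id2 and Smad6 was therefore PDGFRA-HIGH, EpCAM, PDGFRA-MED by mean, and for the other 4 genes PDGFRA-HIGH, PDGFRA-MED, EpCAM, with the EpCAM and PDGFRA-MED libraries overlapping in range for Id1, Id3 and Smad6.

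Across the 27 libraries of this table the members shared profiles that rest on the 3 sorts, given here as a description. Pearson's r of log2(RPKM + 0.5) was 0.97 between Smad9 and Atoh8, 0.97 between Id3 and Smad7 and 0.95 between Id1 and Smad6, but 0.32 between Id2 and Atoh8. By the fixed rule, the gene most like each member among 9257 genes was Bmp7, a BMP ligand, for Id1 (r = 0.983), Cnppd1 for Id2 (0.967), Csrnp1 for Id3 (0.986), Tob2 for Smad6 (0.989), Zfp608 for Smad7 (0.993), Ntf3 for Smad9 (0.994) and Sdk1 for Atoh8 (0.994). The next were Whrn for Id1 (0.980), Myo1e for Id2 (0.955), Cyth2 for Id3 (0.985), Cebpb for Smad6 (0.988), St5 for Smad7 (0.989), Bmp6 for Smad9 (0.993) and Kdm5b for Atoh8 (0.994).

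CD29-HIGH cells, which carried the smooth muscle genes, were set against PDGFRA-MED cells in a table of their own. The PDGFRA-MED libraries are those of the comparison above, so the counts are not independent. Here 4 of 7 genes were higher in all 3 regions, Id1, Id2, Id3 and Smad9, where 9.52% of 13334 genes were, and Smad6, Smad7 and Atoh8 did not pass. Id1 read 64.3, 75.7 and 45.2 RPKM in proximal, 54.1, 69.5 and 46.5 RPKM in mid and 86.3, 86.1 and 57.2 RPKM in distal CD29-HIGH libraries, against 6.11 to 25.5 RPKM (median 11.1, n = 9) in PDGFRA-MED libraries. Id2 ranged from 96.0 to 127 RPKM (median 106, n = 9) in CD29-HIGH libraries and from 9.94 to 26.7 RPKM (median 17.8, n = 9) in PDGFRA-MED libraries. The mean difference was 2.38 ± 0.13 for Id1 (limma, adjusted p = 5.87e-08) and 2.61 ± 0.09 for Id2 (adjusted p = 6.68e-11), with no overlap in either gene.

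Smad9 read 17.6, 18.6 and 17.1 RPKM in proximal, 13.8, 14.4 and 13.4 RPKM in mid and 13.5, 14.4 and 13.8 RPKM in distal CD29-HIGH libraries, against 2.44 to 4.26 RPKM in PDGFRA-MED libraries. Its difference was 2.08 ± 0.04 (limma, adjusted p = 1.85e-14), with no overlap. Id3 read 47.5, 55.1 and 34.1 RPKM in proximal, 60.8, 63.6 and 43.0 RPKM in mid and 78.7, 87.7 and 54.7 RPKM in distal CD29-HIGH libraries, against 18.2 to 44.9 RPKM in PDGFRA-MED libraries. The ranges overlapped over regions but not within one, and the difference was 1.12 ± 0.07 (limma, adjusted p = 2.3e-06). Without the replicate block Id3 no longer passed in all 3 regions, which left 3 members. The inhibitory SMADs had smaller differences, with Smad6 at 7.97 to 10.6 RPKM against 4.44 to 7.33 RPKM (0.61 ± 0.06, adjusted p = 0.148) and Smad7 at 9.82 to 13.6 RPKM against 7.13 to 9.49 RPKM (0.37 ± 0.04, adjusted p = 1). Both were higher in 9 of 9 same-numbered pairs and did not overlap within a region. They passed in all 3 regions when no minimum change was asked for. The share of all genes was not counted for such separation or for that setting. Atoh8 stood at 4.19 to 5.31 RPKM in CD29-HIGH and 3.43 to 5.52 RPKM in PDGFRA-MED libraries (-0.02 ± 0.05, limma, adjusted p = 1).

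**Figure D3:**
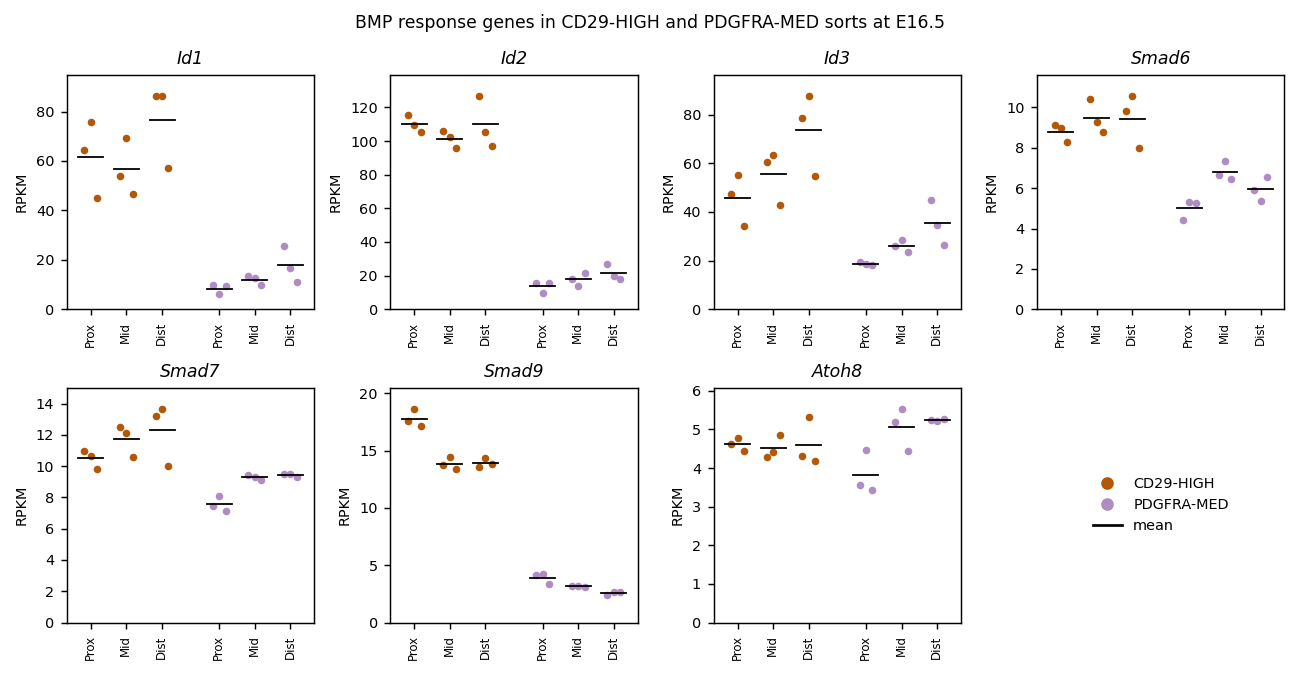
RPKM of the 7 genes in CD29-HIGH and PDGFRA-MED libraries of E16.5 intestine, 3 per sort and region, with lines at the means. Id1, Id2, Id3 and Smad9 are separated within each region, whereas Atoh8 overlaps at 4.19 to 5.31 against 3.43 to 5.52 RPKM.

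The surrounding pathway in CD29-HIGH cells was counted with the same lists. Of all genes tested, 9.52% were higher and 7.09% lower in all 3 regions. Of 7 ligand genes none was higher and 6 were lower than in PDGFRA-MED cells, with Bmp4 at -3.79 ± 0.23, Gdf6 at -3.78 ± 0.13 and Bmp6 at -2.79 ± 0.11, whereas 9 of 14 antagonists were higher, among them Grem1 at 5.92 ± 0.08 and Nog at 4.03 ± 0.07. Of 10 receptors and co-receptors 4 were higher, among them Rgmb at 2.46, Rgma at 2.39 and the type I receptor Acvr1 at 0.99, and 2 were lower, Acvrl1 at -2.06 and Eng at -1.99. Id4, a relative of the members, was the sole other BMP target that was higher, at 3.25, while Zfp423 was lower at -1.42. Among regulators Ppm1a, a SMAD phosphatase, at 1.19 and Tob1 at 1.17 were higher, and the E protein gene Tcf4 was lower at -1.25. The median difference was -2.52 for ligands and 1.52 for antagonists, against 0.01 for all genes. Immediate early genes summed to 1427 to 2215 RPKM in CD29-HIGH and 997 to 1746 RPKM in PDGFRA-MED libraries, and their part was not tested.

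Side by side, and without a test because the tables were normalised apart, Smad6 averaged 28.2 ± 4.60 RPKM in PDGFRA-HIGH and 9.24 ± 0.886 RPKM in CD29-HIGH libraries, and Smad7 35.9 ± 3.85 and 11.5 ± 1.39 RPKM (SD, n = 9 each). Smad9 averaged 24.1 ± 8.89 RPKM in PDGFRA-HIGH and 15.2 ± 2.01 RPKM in CD29-HIGH libraries. The PDGFRA-MED means that both tables share were 6.14 and 5.92 RPKM for Smad6, 9.09 and 8.76 RPKM for Smad7 and 3.35 and 3.22 RPKM for Smad9.

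Along the intestine, 1 member passed within an untreated sort at E16.5, in PDGFRA-HIGH cells, where 2.53% of genes differed between any pair of regions. In PDGFRA-HIGH cells Smad9 was lower distally than proximally, at -1.09 ± 0.12 (limma, adjusted p = 0.00365), where 1.3% of all genes were lower, and without PDGFRA-HIGH proximal replicate 3, the highest library, the value was -0.98 with an adjusted p of 0.0515. Id2 (-0.55 ± 0.17) and Smad6 (-0.39 ± 0.08) also stood lower distally in PDGFRA-HIGH cells without overlap and did not pass. The share of all genes separated in this way was not counted. In the same contrast Bmp6 at -0.92 and Nog at -1.21 were lower and Fst at 1.54 was higher. No member passed in PDGFRA-MED cells, where 0.876% of genes did for any pair of regions. Distal over proximal, Id1 (0.98 ± 0.21), Id3 (0.86 ± 0.15) and Id2 (0.64 ± 0.17) stood furthest above and Smad9 (-0.52 ± 0.12) below. None passed in CD29-HIGH cells (2.26% of genes), with Id3 at 0.69 ± 0.12 and Smad9 at -0.34 ± 0.07.

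In untreated EpCAM cells at E16.5 no member passed between regions either, where 6.68% of genes did. Id2 came closest, with 91.3, 88.3 and 80.5 RPKM distally and 47.3, 45.2 and 45.8 RPKM proximally (0.90 ± 0.17, limma, adjusted p = 0.178), and it passed when EpCAM groups alone were fitted. In the inhibitor table, where the vehicle library is added, the pooled controls gave 0.92 ± 0.11 for the same contrast of Id2 (limma, adjusted p = 0.0122), and 1.92% of genes were higher. The untreated libraries are the same in both. Smad7 ran the other way, at 4.70, 3.76 and 3.90 RPKM distally against 5.96, 6.13 and 6.70 RPKM proximally (-0.55 ± 0.10, adjusted p = 1).

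At E13.5, before villi form, distal epithelium had little of the Id1 and Id3 transcripts that proximal epithelium carried. Id1 read 3.38, 1.70 and 0.370 RPKM distally and 14.3, 15.7 and 12.8 RPKM proximally (-2.92 ± 0.48, limma, adjusted p = 0.264). Id3 read 1.11, 1.77 and 0.354 RPKM distally and 8.90, 5.78 and 7.11 RPKM proximally (-2.39 ± 0.35, adjusted p = 0.0852), and Smad7 read 5.41, 4.62 and 4.40 RPKM against 8.22, 9.30 and 10.4 RPKM (-0.88 ± 0.13, adjusted p = 0.244). None of these passed with 3 pairs, where 2.16% of 12473 genes did. All 3 distal libraries were below all 3 proximal ones for each gene, but how many of all genes were separated in this way was not counted. Without the replicate block Id3 passed, and leaving out a library brought 1 of Id1 and Id3 past the threshold in 5 of 6 cases. Id2, at 187, 201 and 174 RPKM distally against 176, 164 and 196 RPKM proximally (0.07 ± 0.09), and Smad6, at 0.05 ± 0.11, lay within the spread of the libraries. Atoh8 was at most 1.01 RPKM.

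**Figure D4:**
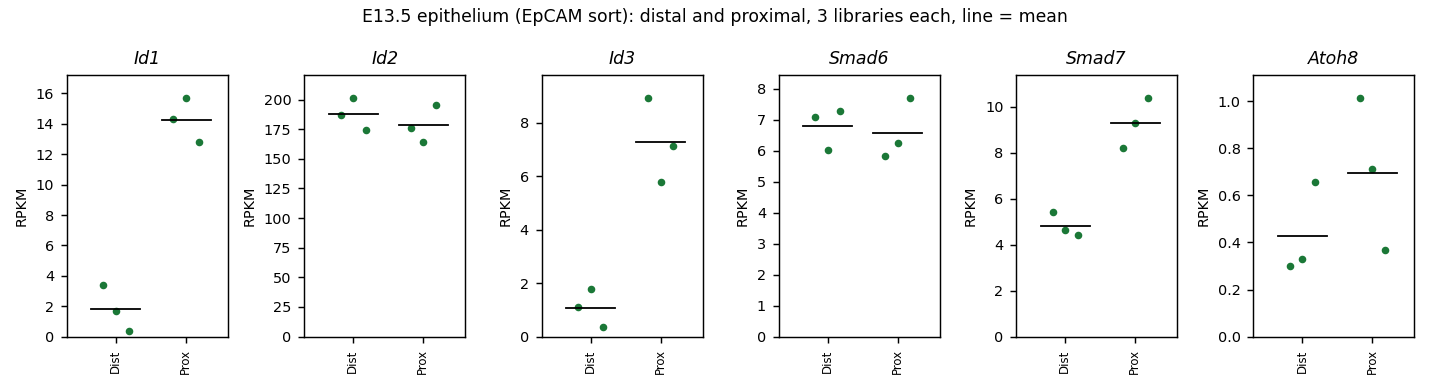
RPKM of 6 of the genes in E13.5 EpCAM libraries from distal and proximal intestine, 3 each, with lines at the means. Id1, Id3 and Smad7 are lower in all distal libraries, and Id2 overlaps at 174 to 201 against 164 to 196 RPKM.

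Among 5 antagonists tested at E13.5, Nog was higher distally at 1.62 ± 0.23 and Nbl1 lower at -1.44 ± 0.20, and Zfp423 was the 1 of 3 other BMP targets that was lower, at -1.41. The Wnt targets Lgr5 at 2.61 and Sp5 at 1.99 were higher distally, 2 of 7 tested. RNA of PDGFRA mesenchyme markers summed to 211 to 368 RPKM in distal and 33.7 to 66.2 RPKM in proximal E13.5 EpCAM libraries. Nearly all of that sum was Vim, at 31.0 to 357 RPKM over the 6 libraries, while Pdgfra was at most 0.678 RPKM, Col1a1 at most 3.58 RPKM and Col3a1 at most 10.5 RPKM. Side by side with E16.5, without a test, untreated EpCAM libraries held 164 to 201 RPKM of Id2 at E13.5 and 45.2 to 91.3 RPKM at E16.5, and distal ones 0.370 to 3.38 RPKM of Id1 at E13.5 and 20.1 to 30.5 RPKM at E16.5.

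The remaining question was how inhibition of PORCN, and with it Wnt secretion, affects these genes in the epithelium of each region. The study itself examined Id1 and Id3 as BMP-responsive genes in these libraries, so their values here are not independent evidence. Against pooled controls no member passed proximally, Id1, Id2 and Id3 were lower in mid epithelium, and Id1 and Id3 were lower in distal epithelium. Of 5 members tested these were 0 (0.995% of 12865 genes were lower), 3 (4.5%) and 2 (6.9%). No member was higher in any region.

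Id1 read 16.1, 21.7 and 19.3 RPKM in proximal LGK974 libraries, against 28.8 RPKM in vehicle and 21.5, 23.4 and 23.8 RPKM in untreated ones, a difference of -0.35 ± 0.16 that did not pass (limma, adjusted p = 1). In mid epithelium it read 6.43, 5.91 and 6.66 RPKM with LGK974, against 27.2 RPKM in vehicle and 20.2, 20.03 and 20.2 RPKM in untreated libraries (-1.70 ± 0.16, adjusted p = 1.47e-05). Distally it read 3.19, 4.71 and 2.66 RPKM with LGK974, against 21.9 RPKM in vehicle and 29.2, 21.2 and 19.3 RPKM in untreated libraries (-2.56 ± 0.16, adjusted p = 1.46e-08). Id1 thus had overlapping groups proximally and none in mid or distal epithelium.

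Id3 was lower with LGK974 than in every control library of all 3 regions. Proximally it read 3.98, 6.54 and 5.66 RPKM with LGK974, against 15.5 RPKM in vehicle and 13.7, 10.8 and 12.1 RPKM in untreated libraries, and missed the threshold (-1.21 ± 0.21, limma, adjusted p = 0.0671). In mid epithelium it read 1.73, 1.14 and 1.74 RPKM with LGK974, against 15.5 RPKM in vehicle and 15.0, 12.7 and 10.03 RPKM in untreated libraries (-2.76 ± 0.21, adjusted p = 1.69e-07). Distally it read 1.28, 1.78 and 1.75 RPKM with LGK974, against 12.8 RPKM in vehicle and 22.3, 14.6 and 10.6 RPKM in untreated libraries (-2.84 ± 0.21, adjusted p = 9.08e-08). The mid and distal values were alike and the proximal one smaller. How many of all genes were below every control was not counted.

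Id2 had another regional order, with its largest difference in the mid region. There it read 26.6, 17.2 and 19.2 RPKM with LGK974, against 62.3 RPKM in vehicle and 60.4, 59.3 and 47.8 RPKM in untreated libraries (-1.45 ± 0.12, limma, adjusted p = 6.47e-06). Proximally it read 23.8, 30.3 and 27.4 RPKM with LGK974, against 39.5 RPKM in vehicle and 45.8, 43.4 and 44.2 RPKM in untreated libraries (-0.66 ± 0.12, adjusted p = 1), and distally 63.4, 60.9 and 60.9 RPKM, against 80.0 RPKM in vehicle and 87.4, 84.8 and 77.5 RPKM in untreated libraries (-0.41 ± 0.12, adjusted p = 1). All LGK974 libraries were below all controls in each region, a separation whose share among all genes was not counted. The proximal and distal differences did not pass the minimum change.

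The inhibitory SMADs had smaller differences. Smad6 read 5.73, 5.27 and 6.21 RPKM proximally, 6.34, 6.95 and 7.68 RPKM in mid and 4.27, 5.83 and 4.68 RPKM distally with LGK974, against 7.15 to 9.95 RPKM over all 12 control libraries. The differences were -0.61 ± 0.10, -0.38 ± 0.10 and -0.67 ± 0.10, and none passed (smallest adjusted p = 0.256). The groups did not overlap within a region, but the share of all genes separated in this way was not counted. Smad7 read 8.85, 8.71 and 9.02 RPKM proximally, 7.76, 6.58 and 7.77 RPKM in mid and 4.58, 4.14 and 5.52 RPKM distally with LGK974, against vehicle libraries at 8.68, 6.86 and 5.88 RPKM and untreated libraries at 3.61 to 6.59 RPKM. Its differences of 0.40 ± 0.16, 0.32 ± 0.16 and 0.10 ± 0.16 did not pass. Proximally the vehicle library lay nearer the LGK974 libraries than the untreated ones did. The mid vehicle library lay within the LGK974 range of its region, and the distal one above it. Smad9 was at most 0.161 RPKM and Atoh8 at most 1.14 RPKM in any library of this table, and neither was tested.

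**Figure D5:**
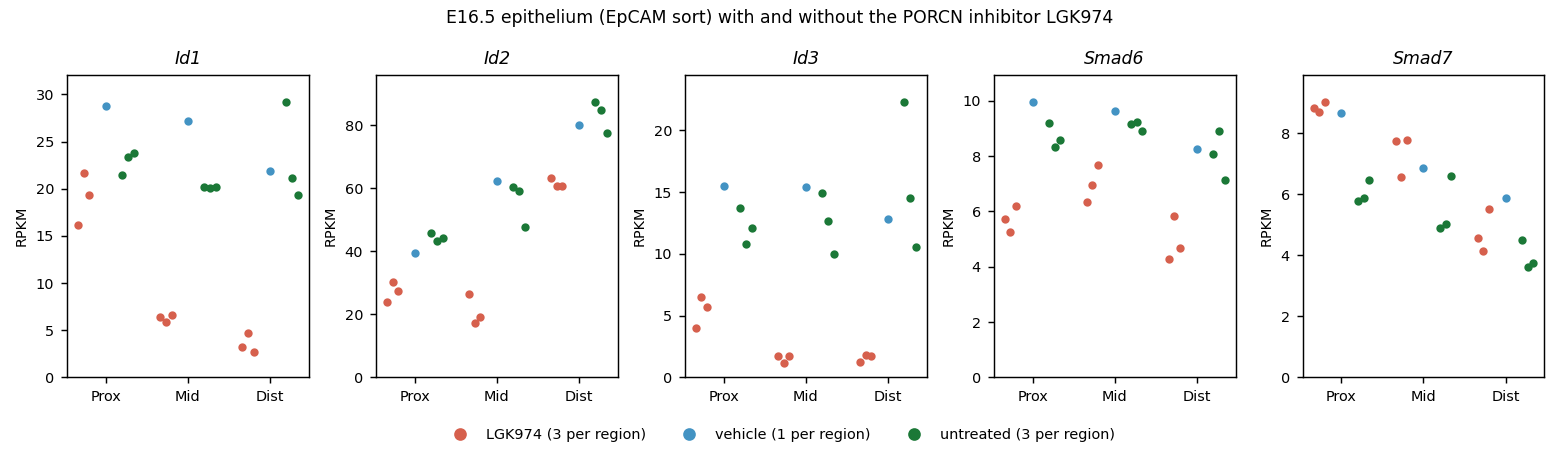
RPKM of the 5 tested genes in E16.5 EpCAM libraries by region, for LGK974 (3 per region), vehicle (1 per region) and untreated (3 per region). Id1 with LGK974 lies at 16.1 to 21.7 RPKM proximally and at 2.66 to 4.71 RPKM distally, Id3 is below every control in each region, and Id2 is lowest with LGK974 in the mid region.

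The regional differences of the inhibitor's effect were tested directly and passed for Id1, Id2 and Id3, 3 of 5 members, where 26.7% of genes passed for any pair of regions. For Id1 the log2 difference between regional effects was -2.20 ± 0.23, distal minus proximal (limma, adjusted p = 1.6e-06), -1.35 ± 0.23, mid minus proximal (adjusted p = 0.000445), and -0.85 ± 0.23, distal minus mid (adjusted p = 0.0335). For Id3 it was -1.63 ± 0.30, distal minus proximal (adjusted p = 0.000583), and -1.54 ± 0.30, mid minus proximal (adjusted p = 0.00173), with no difference passing between distal and mid (-0.09 ± 0.30). For Id2 it was -0.78 ± 0.17, mid minus proximal (adjusted p = 0.00385), and 1.03 ± 0.17, distal minus mid (adjusted p = 0.0011), with 0.25 ± 0.17 for distal minus proximal (adjusted p = 0.332). Lower effects passed for 9.96% of all genes distal minus proximal, for 7.42% mid minus proximal and for 1.7% distal minus mid, and higher ones for 3.69% distal minus mid. The distal against mid call of Id1 was lost in 8 of 14 cases when a library of those regions was left out, and with vehicle controls alone it was -0.49 (adjusted p = 0.472). With vehicle controls alone Id3 gave -1.20 distal minus proximal (adjusted p = 0.0758) and -1.52 mid minus proximal (adjusted p = 0.051).

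Among LGK974 libraries alone, 3 of 5 members passed between regions, where 15.2% of genes did for any pair. Id1 was lower distally than proximally (-2.30 ± 0.17, limma, adjusted p = 8.02e-08), as was Id3 (-1.47 ± 0.23, adjusted p = 0.00274), and Id2 was higher distally than proximally (1.18 ± 0.13, adjusted p = 0.000352) and than in mid (1.56 ± 0.13, adjusted p = 5.53e-06). The LGK974 libraries are those of the comparison with controls. Within the Top.CFP embryos alone, 9 LGK974 against 3 vehicle libraries with region as a term gave -1.71 ± 0.28 for Id1 (limma, adjusted p = 0.0284) and -2.38 ± 0.24 for Id3 (adjusted p = 0.00237), where 1.62% of genes were lower. Id2 at -0.83 ± 0.19 (adjusted p = 0.515), Smad6 at -0.63 and Smad7 at -0.06 did not pass there. The 3 vehicle libraries carry the same replicate number, which stands for 1 mother in the study's model. The 9 LGK974 libraries carry 3 such numbers, and the fit held no term for the mother. Libraries of different regions may therefore share a litter, and the p-values may be too small.

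Of the other BMP targets, Id4 and Bambi, a decoy receptor of the pathway, were the 2 tested, and both were lower with LGK974 in mid (Id4 -3.13, Bambi -1.52) and distal epithelium (Id4 -2.65, Bambi -1.11) and neither proximally. None of 12 SMAD transducers and regulators, 6 receptors or 3 E protein genes passed in any region. Among 4 antagonists Twsg1, which binds BMPs in the extracellular space, was lower in mid at -0.95 ± 0.10 and distally at -0.99 ± 0.10, and among 3 ligands Bmp3 was higher proximally at 2.13 ± 0.21. The Wnt targets Lgr5 and Axin2 were lower in all 3 regions, with Lgr5 at -1.49, -2.81 and -3.59 and Axin2 at -1.29, -1.63 and -1.82 from proximal to distal, and Ascl2 was lower in mid at -1.41 and distally at -1.68.

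Markers of other cell types were summed in the same libraries. Over all regions the ranges with LGK974 and in controls overlapped for mesenchyme, smooth muscle and, in vehicle, blood. Within every region smooth muscle sums with LGK974 lay below all controls. Highest with LGK974 and lowest in controls were 11.4 and 12.7 RPKM proximally, 14.9 and 15.5 in mid and 10.5 and 11.9 distally. Mesenchyme sums did so proximally (30.5 and 33.0 RPKM) and distally (32.8 and 76.1 RPKM) but not in mid. Blood sums lay below vehicle proximally and in mid. PDGFRA mesenchyme markers summed to 9.72 to 37.1 RPKM in LGK974 and 30.0 to 103 RPKM in control libraries, smooth muscle markers to 4.94 to 14.9 RPKM and 11.9 to 49.4 RPKM, and blood markers to 1.64 to 67.8 RPKM in LGK974, 18.2 to 75.0 RPKM in vehicle and 84.8 to 347 RPKM in untreated libraries. Pdgfra itself was at most 0.447 RPKM in LGK974 and at most 1.09 RPKM in control libraries, and much of the mesenchyme sum was Vim, at 5.30 to 21.5 RPKM with LGK974 and 13.1 to 63.2 RPKM in controls. Of 4 blood markers tested 2 were lower proximally, and 1 was higher in mid and 1 in distal epithelium. Csf1r, a macrophage receptor, read 0.754 to 5.54 RPKM with LGK974 and 0.198 to 1.03 RPKM in controls. Enteric neuron and glia markers summed to 2.56 to 8.81 RPKM with LGK974 and 4.04 to 9.55 RPKM in controls. Of 12 cell cycle genes none was lower proximally, 1 in mid and 7 distally, and their sum was 274 to 472 RPKM with LGK974, against 641 to 671 RPKM in vehicle and 479 to 626 RPKM in untreated libraries. Immediate early genes summed to 831 to 1973 RPKM with LGK974, against 907 to 1365 RPKM in vehicle and 587 to 1179 RPKM in untreated libraries. The part of these in the member differences was not tested.

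Over the 21 libraries of the inhibitor table, Id1 and Id3 ran together (r = 0.93) while Id2 and Smad7 ran in opposite directions (r = -0.78), again as a description over libraries that share regions and treatment. The genes most like Id1 among 8355 were Dtx4 (0.953) and Fgfr2 (0.951), those most like Id2 were Lamb2 (0.968) and Wls (0.946), and those most like Id3 were Galnt12 (0.966) and Defa24 (0.958), which is one of a family of near-identical defensin genes whose reads cannot be assigned with certainty. Smad6 was most like the cell cycle genes Ccna2 (0.941) and Hmmr (0.927), and Smad7 most like Trak1 (0.937) and Efcab14 (0.927).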

How the data were processed

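Total RNA of sorted mouse cells was sequenced with a stranded kit in 54 libraries. The authors aligned reads to mm10 with Rsubread, counted them per RefSeq gene with featureCounts, keeping multi-mapping reads, and deposited RPKM from edgeR, normalised within each of 4 tables, which were used as deposited. Whole reads came out of RPKM and gene length for 100% of values within 0.01 and served for depth and a count-based alternative (limma-voom). 18 library columns occur in 2 tables with identical recovered reads and RPKM that differ by the normalisation of each table. The columns were matched to samples by name, and no column of another sample was present. Of 17393 gene IDs, 16582 carried a symbol and 450 more were named from RefSeq.

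Main tests used limma 3.58.1 (R 4.3.3) with robust moderation, a trend of variance on level and a minimum log2 change of 0.5. Values were log2(RPKM + 0.5) of genes reaching 1 RPKM in 3 or more libraries (12473, 13334, 12865 and 14732 genes in the E13.5, CD29-HIGH, inhibitor and E16.5 tables), with Benjamini-Hochberg adjusted p under 0.05. Interactions were tested without a minimum change. Replicate number, which stands for the mother in the study's model, was a block except in the inhibitor table, since a dam received 1 treatment. Same-numbered libraries deviated together on average, with mean r of 0.20, 0.24, 0.14 and 0.14 in the E13.5, CD29-HIGH, inhibitor and E16.5 tables. Replicate pairs differed by more than sampling noise (chi-square per degree of freedom 8.32 to 62.2), and where nothing states separate litters p-values measure only the spread between libraries. Scripts were tested on simulated data.

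Alternatives covered the pseudocount, the filter, quantile normalisation, voom, the groups fitted, each library left out, the block, the minimum change and the controls. The 7 genes are named in every comparison. Of each pathway list, up to 3 genes per direction with the largest passing change are named, and for likeness the 2 genes with the highest Pearson correlation among genes with a mean RPKM of at least 5. A gene that this rule would name is not reported here. The members and lists were chosen with earlier results of these data known.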

Additional observations from a re-analysis of the deposited data

Results flagged for a closer look

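A single library stood apart from its group. Among the control libraries of mid epithelium, the vehicle library had 27.2 RPKM of Id1, against 20.03 to 20.2 RPKM in the 3 untreated libraries. This was examined in 21 groups of 4 libraries, chance gives about 1 in 20, and 1 was found.

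The following effects differed between regions by the interaction test. The LGK974 effect on Id1 differed by -2.20 (distal minus proximal), -1.35 (mid minus proximal) and -0.85 (distal minus mid), that on Id3 by -1.63 (distal minus proximal) and -1.54 (mid minus proximal), and that on Id2 by -0.78 (mid minus proximal) and 1.03 (distal minus mid). Of these, the distal minus mid call of Id1 was lost under 10 of 22 alternatives, and each call of Id3 under 1 of 22. The difference between PDGFRA-HIGH and PDGFRA-MED cells was smaller distally than proximally for Id2 (-1.19), Id3 (-0.76), Smad6 (-0.61) and Smad9 (-0.56), of which the Smad9 call was lost under 13 and the Id3 call under 5 of 19 alternatives.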

How the results depend on the processing

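Of 2522 member values under alternatives, 2442 kept their side of the threshold, 34 were no longer past it and 46 were newly past it. No called value changed sign, and 36 values that did not pass did. All 7 members stayed higher in PDGFRA-HIGH than PDGFRA-MED cells under every alternative run. Dropping the minimum change moved the counts of members called most, to 3 between regions in EpCAM, 3 in PDGFRA-HIGH, 5 in PDGFRA-MED, 3 in CD29-HIGH and 5 in LGK974 cells, 2 at E13.5, 6 for EpCAM over PDGFRA-MED, 6 for CD29-HIGH over PDGFRA-MED, and 3 and 4 for LGK974 in proximal and distal epithelium. The share of all genes called without a minimum change was not counted, so these member counts have nothing to be set against. At E13.5 quantile normalisation called 1 and voom 2 members, and leaving out a library 0 to 1. With EpCAM groups alone fitted, 1 member passed between EpCAM regions. Leaving out a library gave 0 to 1 members between regions of PDGFRA-HIGH cells (0 without proximal replicate 3) and 2 to 4 for the regional difference between PDGFRA-HIGH and PDGFRA-MED. Without the replicate block that count was 2, E13.5 gave 1 and CD29-HIGH over PDGFRA-MED 3, and no other count moved; adding the pairing to the inhibitor table changed no count. The cause of these shifts was not tested. Fitting the compared groups alone equals the whole table at E13.5, for CD29-HIGH over PDGFRA-MED and for the regional LGK974 effect, and gave no separate value. Vehicle groups hold 1 library, and at 3 libraries per group differences near the minimum change could not be called.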
